A study of Homo sapiens with 3 samples.

Results

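Gene expression was compared between 2 RNA-seq libraries of human endothelial-like progenitors that differ in surface CD105, one sorted as CD31+CD105low and one as CD31+CD105neg, here called CD105low and CD105neg. Genes were counted when their deposited value was at or above 10 in either library, which kept 5820 of 18345 genes, and the 2 libraries are 2 of the 3 samples of the study. The remaining sample, CD105high, is given as values beside them and enters no comparison. All groups were made from the established embryonic stem cell line H1 and received activin A at 40 ng/ml with BMP4 at 50 ng/ml for 2 days and then VEGF at 40 ng/ml with bFGF at 50 ng/ml for 3 days. The samples carry day 4 as their time, although those stages add up to more. Cells were gated as CD31+CD34+ before they were divided by CD105, so both groups carry the gate. All samples come from 1 cell line, and each group is 1 library prepared out of 2 ug total RNA by a kit that does not mark strand. No difference given here has a replicate check, and each is a difference between 2 libraries.

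CD105 is endoglin, encoded by ENG, a co-receptor that binds BMP9 and BMP10 and passes their signal on with the receptor ACVRL1 (ALK1) to SMAD proteins in endothelial cells. Hemogenic endothelium is the endothelium of the embryo from which the first blood cells bud. It carries junction and receptor proteins of blood vessels such as VE-cadherin and the VEGF receptor KDR, and cells that leave it switch on blood genes, among them the embryonic globins and the surface proteins of red cells. Arterial endothelium uses Notch signalling, with ligands such as DLL4 on 1 cell and Notch receptors on its neighbour.

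Most endothelial genes were higher in CD105low than in CD105neg, and globin genes and some glycophorin genes were lower. Lipoprotein lipase (LPL), the complement lectin ficolin-3 (FCN3) and the heat-shock protein gene HSPA2 stood furthest above CD105neg among the genes counted. The embryonic globin gene HBE1 stood furthest below among genes at or above 10 FPKM without a clone name. Most other genes stayed close: 63 of the 5820 genes were at least 2-fold higher in CD105low, 1.08% of the genes counted, and 24 were at least 2-fold lower, 0.412%. Fold changes are of the value plus 1, on a log2 scale, minus the median difference of all genes counted, which was 0.01. For genes near the floor, the added 1 makes the fold change smaller than the plain ratio of both levels.

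**Figure D1:**
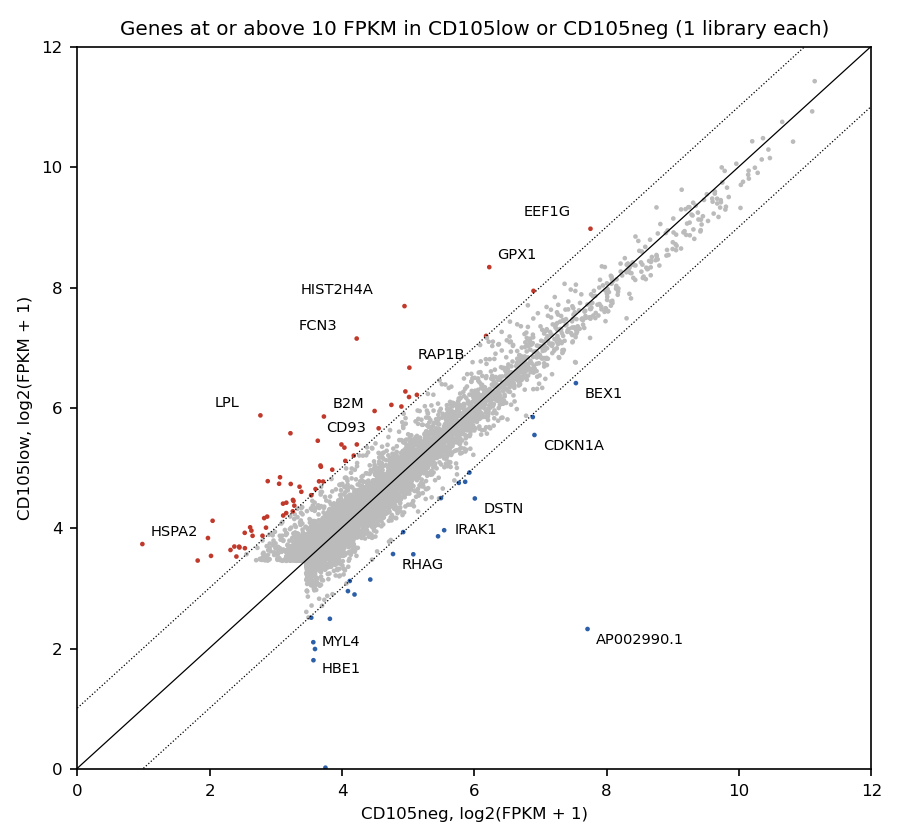
Level of each of the 5820 genes in CD105low (vertical axis) against CD105neg (horizontal axis), both as log2(FPKM + 1), 1 point a gene. The solid line is the median gene and the dotted lines lie 2-fold above and below it; 63 genes in red lie above and 24 in blue below.

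ENG (ENSG00000106991.13), the gene of the sorted protein, stood at 2.12 FPKM in CD105neg, 8.56 in CD105low and 13.8 in CD105high (log2 fold change of CD105low over CD105neg 1.60). Its level was lowest in the library labelled negative, although the value column of that library's table carries a name that reads as CD105 positive. ENG stayed under 10 FPKM in both libraries and so is not among the 5820 genes. The genes of the gate were present in both libraries. PECAM1, which encodes the junction protein CD31, was 29.9 FPKM in CD105neg and 41.9 in CD105low (0.46). CD34, a sialomucin of endothelial and blood progenitor cells, was 21.0 FPKM in CD105neg and 39.2 in CD105low (0.86). The defining endothelial markers CDH5, KDR, TEK, TIE1, ESAM, CLDN5, CD93 and EGFL7 summed to 1244 FPKM in CD105neg and 1683 in CD105low, and 8 of 8 were higher in CD105low. CLDN5, the tight-junction claudin of endothelium, was near 0 in both, at 0.68 and 1.31 FPKM. In these bulk samples, fewer cells of a type and less RNA per cell cannot be told apart.

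Markers of other cell types were mostly lower in CD105low or alike in both libraries. The 10 erythroid markers summed to 61.0 FPKM in CD105neg and 19.6 in CD105low, and were lower in CD105low in 10 of 10. Of them 3, HBZ, HBA1 and HBA2, were listed at 0 in CD105low. These 3 were also near 0 in CD105neg, at 0.052, 0.050 and 0.042 FPKM, so their direction carries little weight. The 6 megakaryocyte and blood markers summed to 15.02 and 9.84 FPKM, with the leukocyte gene PTPRC listed at 0 in CD105low and at 0.0038 FPKM in CD105neg. Mesenchymal markers summed to 45.3 and 31.4 FPKM, and 4 of 5 were lower, led by the pericyte receptor PDGFRB at 9.05 and 4.99 FPKM. The wider list of mesenchymal and mural genes was even. Of its 12 genes at or above 10 FPKM, 6 lay above 0 and 6 below (median log2 fold change 0.02). DCN, a proteoglycan of fibroblasts, was listed at 0 in CD105low and at 0.0036 FPKM in CD105neg. LUM was below 1 FPKM in both libraries too, at 0.70 in CD105neg and 0.77 in CD105low. The 4 pluripotent markers analysed summed to 39.8 and 39.4 FPKM, the cardiac ones to 13.2 and 14.4, the endoderm ones to 6.92 and 4.86 and the neural ones to 9.23 and 8.36. Of the pluripotent markers 3 were lower, and DPPA4, at 30.3 and 32.8 FPKM, was higher. The part of these cells in the differences below was not tested.

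Promoter sequence is shown for ENG, the sorted gene, for DLL4 and SELE, endothelial genes that were higher in CD105low, and for GYPE, a red cell gene that was lower. The bases are the 250 upstream of each gene's start, from RefSeq on GRCh38.p14, read 5′ to 3′ on the gene's strand. Capitals mark AGGAAG or its other strand CTTCCT, letters that ETS factors of endothelium bind, and AGATAA or its other strand TTATCT, letters that GATA factors of red cells bind.
ENG, chr9:127854659-127854908, minus strand: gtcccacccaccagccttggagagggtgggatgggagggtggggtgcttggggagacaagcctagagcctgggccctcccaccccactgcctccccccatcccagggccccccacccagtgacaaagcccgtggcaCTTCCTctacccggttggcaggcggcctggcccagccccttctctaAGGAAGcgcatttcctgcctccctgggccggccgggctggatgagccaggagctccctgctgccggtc
DLL4, chr15:40929090-40929339, plus strand: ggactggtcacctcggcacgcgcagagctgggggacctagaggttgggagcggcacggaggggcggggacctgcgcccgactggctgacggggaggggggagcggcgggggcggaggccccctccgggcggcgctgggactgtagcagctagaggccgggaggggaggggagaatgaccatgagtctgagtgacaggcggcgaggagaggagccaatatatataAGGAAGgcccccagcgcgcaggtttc
SELE, chr1:169734080-169734329, minus strand: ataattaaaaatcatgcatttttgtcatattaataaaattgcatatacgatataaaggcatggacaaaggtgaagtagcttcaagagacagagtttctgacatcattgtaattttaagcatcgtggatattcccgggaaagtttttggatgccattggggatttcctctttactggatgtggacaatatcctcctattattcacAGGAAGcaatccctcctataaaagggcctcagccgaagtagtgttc
GYPE, chr4:143905560-143905809, minus strand: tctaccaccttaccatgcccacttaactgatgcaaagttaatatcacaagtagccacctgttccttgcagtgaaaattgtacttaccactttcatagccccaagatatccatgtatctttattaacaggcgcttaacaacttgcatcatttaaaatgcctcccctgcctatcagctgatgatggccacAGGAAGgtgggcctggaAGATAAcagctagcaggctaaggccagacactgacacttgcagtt
ENG held 2 ETS matches, DLL4 and SELE 1 each, and GYPE 1 of each kind. The ETS letters occurred in 13 of the 48 promoters given for the 63 higher genes (27.1%) and in 27.3% of the 4664 promoters of all genes counted, so the shares were alike. In the 19 promoters of the 24 lower genes they occurred in 4 (21.1%). The GATA letters occurred in 4 of 48 (8.33%) and 1 of 19 (5.26%), against 4.12% of all genes counted. GYPE was the 1 lower gene with the GATA letters. Every promoter shown holds an ETS match, so those shown are not typical of the higher or lower genes. Over all 27305 promoters of the table the shares were 28.7% for the ETS letters and 9.37% for the GATA letters. A match of letters is a description of the window and not a site of binding.

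Surface and junction genes of endothelium were, by their median at or above 10 FPKM, the list that stood furthest above CD105neg. Of the 40 genes of the endothelial list, 24 reached 10 FPKM. Of those, 15 were at least 1.5-fold higher in CD105low, where 4.3% of all genes counted were that much higher, and 1 was at least 1.5-fold lower, where 2.16% of all genes counted were. The median log2 fold change of the 24 genes was 0.77, against 0 for all genes counted, and 23 of 24 lay above 0. At a floor of 1 FPKM, 37 genes entered, of which 22 were higher and 1 lower, where the shares of all 11255 genes were 3.98% and 2.4%. The same shares of all genes are the background of each list count that follows. The list was chosen with earlier results of these data known.

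Among members at or above 10 FPKM, receptors and adhesion molecules had the highest fold changes. Below that floor, the secreted proteins OIT3, ESM1 and EDN1, chosen after their values were seen, had log2 fold changes of 2.30, 2.05 and 1.85. ADGRF5, an adhesion G protein-coupled receptor of capillary endothelium, was 3.13 FPKM in CD105neg, 16.5 in CD105low and 27.6 in CD105high (log2 fold change of CD105low over CD105neg 2.07). PCDH12, a protocadherin of endothelial junctions, was 2.93, 13.3 and 23.0 FPKM in the same order of libraries (1.85). CD93, a C-type lectin receptor of endothelium, was 11.4, 42.9 and 79.6 FPKM (1.81). For these genes the CD105low library lay between the other two. ADGRL4, an adhesion receptor named for its endothelial expression, stood at 7.36, 27.8 and 42.1 FPKM (1.77). SELE, the leukocyte adhesion molecule E-selectin whose promoter is shown above, was 30.1, 76.5 and 93.1 FPKM (1.304). PLVAP, the protein of the diaphragms of endothelial caveolae and fenestrae, was 118, 246 and 296 FPKM (1.04). SELE and PLVAP were chosen after their values were seen. The more general endothelial genes were closer together: CDH5, which encodes VE-cadherin, was 48.01 FPKM in CD105neg and 79.6 in CD105low (0.71), and KDR was 430 and 644 (0.57). EGFL7, a secreted endothelial factor, was 558 and 630 FPKM (0.16).

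ICAM2, an adhesion molecule of endothelium, platelets and leukocytes, went the other way. It stood at 50.9 FPKM in CD105neg, 26.8 in CD105low and 17.2 in CD105high (-0.91). It shares 35.7% of its sampled transcript sequence with other genes, so its level is uncertain. The same holds for higher members: ECSCR shares 72.0%, RAMP2 15.2% and THSD1 11.8%. Without genes that share at least 10%, 12 members were higher and none lower. Of the 3 genes at or above 1 FPKM that were lower in CD105low, ICAM2 was the one past 1.5-fold. VWF, the clotting factor stored in endothelial granules, lay just short of the 2-fold line at 4.89 FPKM in CD105neg and 10.9 in CD105low. IFI16 (71.4 and 146 FPKM, 1.01) and TMEM263 (10.6 and 22.5 FPKM) lay just inside it. On the lower side RHOT2 and DUSP3 lay just inside, and ZPR1 and RNF6 just outside.

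Genes of arterial endothelium and the Notch pathway were higher in part. Among 12 genes at or above 10 FPKM, 6 were at least 1.5-fold higher in CD105low and 1 was lower (median 0.42), where 4.3% and 2.16% of all genes counted were. The ligand DLL4 was 4.18 FPKM in CD105neg, 11.98 in CD105low and 18.5 in CD105high (1.31), with CD105low between the others. NRP1, a co-receptor for VEGF and semaphorins, was 38.4, 74.4 and 95.4 FPKM (0.92). MFNG, a glycosyltransferase that modifies Notch receptors, was 11.1, 19.2 and 23.0 FPKM (0.72). The receptors themselves were close, with NOTCH1 at 32.2 FPKM in CD105neg and 38.6 in CD105low (0.24), NOTCH2 at 10.9 and 9.72 (-0.17) and NOTCH3 at 14.1 and 13.8 (-0.05). The receptors were named after their values were seen. The 2 connexins of arterial endothelium went in opposite directions. GJA4, which encodes connexin 37, was 6.09 FPKM in CD105neg and 10.7 in CD105low (0.70), and GJA5, which encodes connexin 40, was 17.3 and 11.2 (-0.59). Without centring, GJA5 did not reach 1.5-fold. Among 5 venous and lymphatic genes, 1 was higher and none lower (median 0.36). It was FLT4, the receptor for the lymphatic growth factor VEGF-C, at 18.9, 36.0 and 41.3 FPKM (0.88).

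In the pathway that endoglin belongs to, receptors and ligands of BMP and TGF-beta signalling, 4 of 14 genes were at least 1.5-fold higher, against 4.3% of all genes counted, and none lower (median 0.39). BMP6, a ligand made by endothelium that sets hepcidin levels in the liver, was 5.20 FPKM in CD105neg, 14.6 in CD105low and 23.7 in CD105high (1.32). ACVRL1, the receptor that endoglin assists, was 56.4, 88.9 and 111 FPKM (0.63). SKIL, a feedback inhibitor of SMAD proteins, was 17.8, 33.0 and 42.7 FPKM (0.84), and SMURF2, a ubiquitin ligase that removes the receptors, was 35.8, 54.9 and 60.8 FPKM (0.59). For the ligand, the receptor and both inhibitors, CD105low lay between the other libraries. The type II receptor gene BMPR2, below the floor of 10 FPKM, was 4.60 FPKM in CD105neg and 9.34 in CD105low (0.87), and was named after its value was seen. BMP4, the ligand that was also added to the cultures, was 8.60, 12.7 and 5.49 FPKM, highest in CD105low (0.50).

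Red cell genes formed the group that stood furthest below CD105neg in single members. Of 31 globin and red cell membrane genes, 8 reached 10 FPKM; 3 of them were at least 1.5-fold lower in CD105low, against 2.16% of all genes counted, and none was higher (median -0.24). At a floor of 1 FPKM, 18 entered, of which 9 were lower, against 2.4% of all genes at that floor, and none higher (median -0.62). HBE1 (ENSG00000213931.5), the embryonic beta-like globin, was 10.9 FPKM in CD105neg, 2.50 in CD105low and 1.09 in CD105high (-1.77). It shares 81.4% of its sampled sequence with other genes and overlaps HBG2. The fetal globins HBG2 and HBG1 were 8.10 and 3.29 FPKM in CD105neg and 1.16 and 0.57 in CD105low (-2.09 and -1.47), so all 3 were lower. The summed level of HBE1 and HBG2 was 19.0 FPKM in CD105neg and 3.67 in CD105low. RHAG, the Rh-associated glycoprotein of the red cell membrane, was 26.3, 10.9 and 5.71 FPKM (-1.21).

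The glycophorins GYPE and GYPB, sialoglycoproteins of the red cell surface, were lower too. GYPE was 10.6 FPKM in CD105neg, 4.72 in CD105low and 2.22 in CD105high (-1.03). GYPB was 8.92, 3.72 and 1.38 FPKM (-1.08). They are members of 1 family with like sequences. GYPC, a glycophorin of a separate family that other cells also express, was 35.1 FPKM in CD105neg and 36.3 in CD105low (0.03). The membrane skeleton gene EPB41 was 42.7 and 46.1 FPKM (0.10), and the transferrin receptor TFRC was 12.6 and 10.6 (-0.24). These genes, which many other cells also use, lay closer to 0 than GYPB and GYPE, and the 5 glycophorin, EPB41 and TFRC genes of this paragraph were named after their values were seen. Other list members below 10 FPKM lay near or above 0 too. EPOR was 7.19 FPKM in CD105neg and 9.45 in CD105low (0.34), and KEL was 6.87 and 5.80 (-0.22), both also named after their values were seen. At a floor of 1 FPKM, 15 of the 18 red cell genes lay below 0 and 3 above. ALAS2, the enzyme that opens haem synthesis in red cells, was near 0 at 1.02 and 0.21 FPKM. The general haem synthesis and iron import genes showed no member 1.5-fold apart among 11, although 10 of 11 lay below 0 (median -0.17). UROD, which makes a porphyrin intermediate, was the lowest at 77.9 and 55.9 FPKM (-0.48).

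Megakaryocyte and blood surface genes divided. At or above 10 FPKM, 2 of 4 were higher and none lower, namely the tetraspanin CD9 at 15.7 and 27.7 FPKM (0.77) and the stem cell factor receptor KIT at 6.76 and 12.2 FPKM (0.75). Both are also expressed outside blood. The platelet integrin chains ITGA2B, at 7.84 FPKM in CD105neg and 4.87 in CD105low (-0.61), and ITGB3, at 1.84 and 0.45 (-0.99), were lower. ITGB3 shares 56.4% of its sampled sequence with other genes and ITGA2B none. At a floor of 1 FPKM, 2 of 12 were higher and 2 lower, with a median of 0.00.

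**Figure D2:**
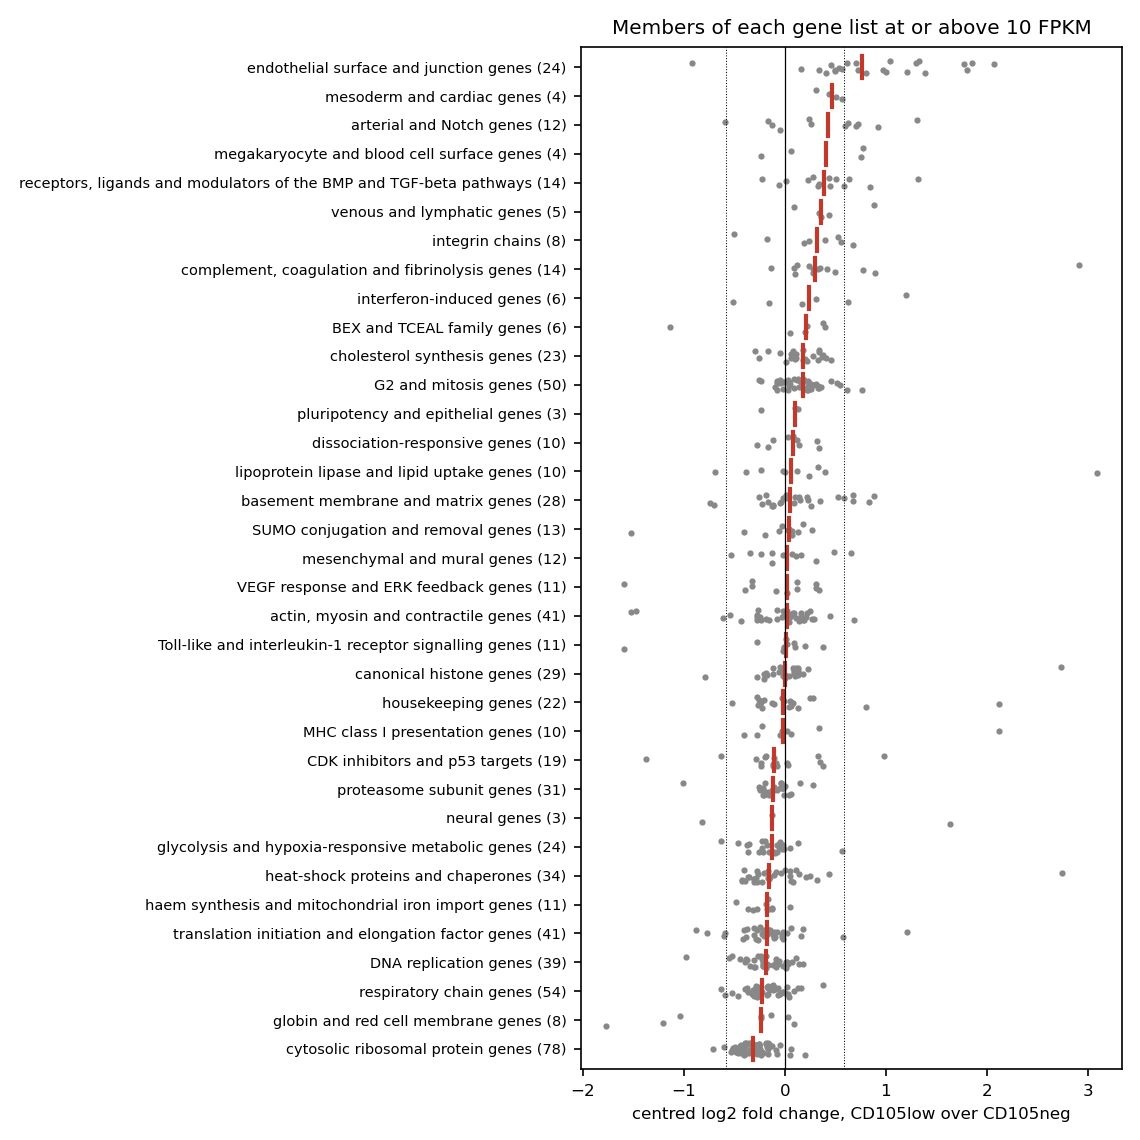
Centred log2 fold change of CD105low over CD105neg for each member of a gene list that reached 10 FPKM (grey points). Red bars are the list medians, and the number of members is in parentheses. Dotted lines mark 1.5-fold higher and 1.5-fold lower. The endothelial median of 0.77 lies furthest right and the ribosomal median of -0.31 furthest left, and the red cell list has 3 members far to the left of its median.

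The genes with the largest differences in CD105low included lipid, complement and stress genes. LPL (ENSG00000175445.14), which frees fatty acids from lipoproteins at the vessel wall, was 5.81 FPKM in CD105neg, 57.8 in CD105low and 135 in CD105high (3.10). Among 10 genes of lipid uptake at or above 10 FPKM, LPL was the 1 higher gene, PLIN3, which coats lipid droplets, was the 1 lower gene at 29.7 and 18.2 FPKM (-0.69), and the median was 0.06. At a floor of 1 FPKM, 3 of 21 were higher and 1 lower, the added ones being the endothelial lipase gene LIPG at 2.23 and 4.19 FPKM (0.67) and the LPL inhibitor ANGPTL4 at 5.23 and 8.87 FPKM (0.65), both named after their values were seen. FCN3 (ENSG00000142748.12), a lectin that starts the lectin pathway of complement, was 17.7, 142 and 314 FPKM (2.92). Beside FCN3, 2 more of the 14 complement, coagulation and fibrinolysis genes were 1.5-fold higher and none lower (median 0.30). They were the inhibitor TFPI2 at 25.5 and 48.6 FPKM (0.89) and the plasminogen activator PLAU at 16.6 and 29.4 FPKM (0.77).

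HSPA2 (ENSG00000126803.9), a member of the HSP70 family, was 0.98 FPKM in CD105neg, 12.4 in CD105low and 12.3 in CD105high (2.74), so its level was alike in both CD105-bearing libraries. HSPA2 was the 1 member of 34 heat-shock and chaperone genes past 1.5-fold, and their median was -0.16. GPX1, a glutathione peroxidase that removes hydrogen peroxide, was 73.9, 323 and 406 FPKM (2.10), with 18.6% of its sampled sequence shared with other genes. TNFSF10, which encodes the death ligand TRAIL, was 6.35, 26.6 and 44.8 FPKM (1.89). C8orf4 was 8.33, 46.9 and 110 FPKM (2.35), and FAM198B was 7.28, 25.8 and 32.6 FPKM (1.68). GAP43, a protein of nerve growth cones, was 2.53, 10.05 and 18.5 FPKM (1.63). In each of these except HSPA2, CD105low lay between CD105neg and CD105high.

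Some genes set CD105low apart from both other libraries. B2M, the light chain of MHC class I, was 12.2 FPKM in CD105neg, 57.0 in CD105low and 21.1 in CD105high (2.12). It was the 1 gene of 10 in MHC class I presentation that was 1.5-fold higher, none was lower, and the median of the 10 was -0.02. RAP1B, a small GTPase of cell adhesion, was 31.4, 101 and 28.6 FPKM (1.64), with 18.6% of its sequence shared with other genes. On the lower side, PHLDA1, a gene induced by growth factor signalling, was 42.8, 13.6 and 38.2 FPKM (-1.60). DSTN, which takes actin filaments apart, was 63.4, 21.6 and 56.1 FPKM (-1.52). ORMDL3, an inhibitor of sphingolipid synthesis, was 17.2, 6.47 and 17.4 FPKM (-1.30). For these 5 genes the CD105neg and CD105high libraries were closer to each other than either was to CD105low.

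**Figure D3:**
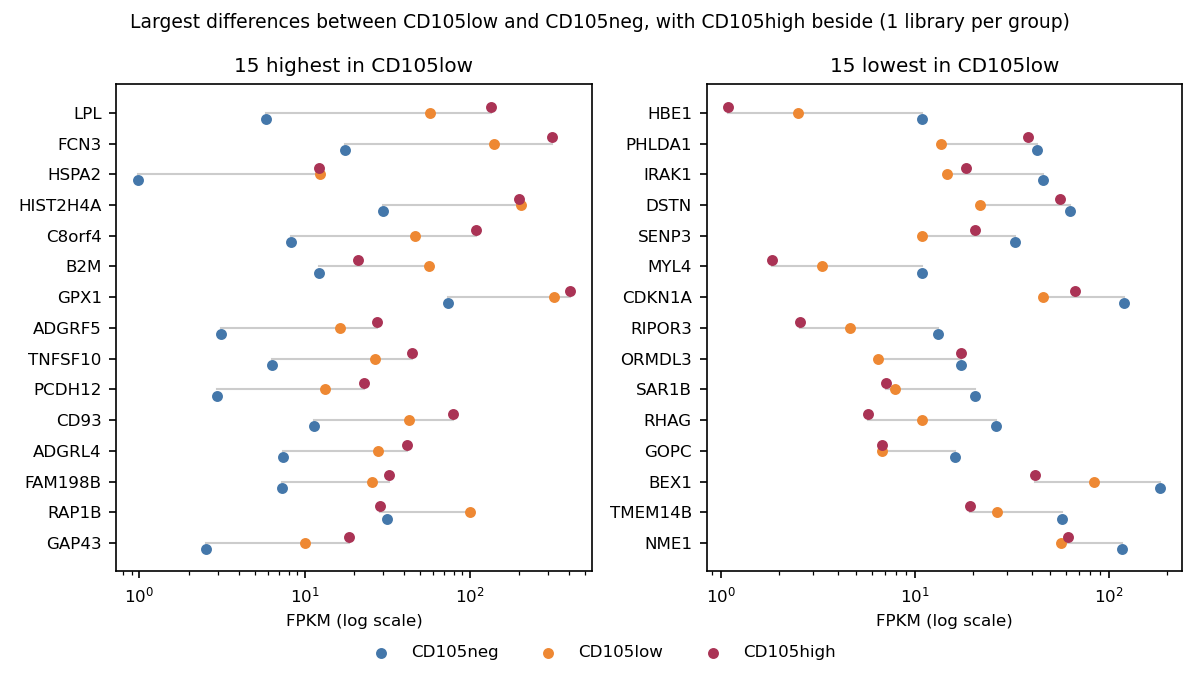
FPKM on a log axis in CD105neg (blue), CD105low (orange) and CD105high (purple), 1 library each, for the 15 genes with the highest and the 15 with the lowest centred log2 fold change of CD105low over CD105neg, without clone-named and read-through genes; points of a gene are set apart vertically so that none is hidden. B2M and RAP1B on the left and PHLDA1, DSTN and ORMDL3 on the right have their orange point at 1 end and the other points near each other.

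Other genes far below CD105neg came from several processes. CDKN1A, which encodes the cell cycle inhibitor p21, was 119 FPKM in CD105neg, 45.9 in CD105low and 67.0 in CD105high (-1.37). IRAK1, a kinase of interleukin-1 and Toll-like receptors, was 45.7, 14.7 and 18.2 FPKM (-1.59). MYL4, a myosin light chain of embryonic muscle and atrium, was 10.9, 3.31 and 1.83 FPKM (-1.47). For IRAK1, the CD105low value lay close to that of CD105high. BEX1, a small protein of neural and progenitor cells, was 185, 84.3 and 41.5 FPKM (-1.13), the highest level among the 15 lowest genes without clone-named and read-through genes. RIPOR3 was 13.1, 4.65 and 2.56 FPKM (-1.33), and TMEM14B, with 15.97% of its sequence shared, was 57.2, 26.4 and 19.3 FPKM (-1.10). SAR1B, a GTPase that forms vesicles leaving the endoplasmic reticulum, was 20.5, 7.88 and 7.08 FPKM (-1.29).

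Genes of the cell cycle differed little. Of 50 G2 and mitosis genes, 39 lay above 0 and 2 were at least 1.5-fold higher, none lower (median 0.18). They were BIRC5, which encodes the mitotic protein survivin, at 17.3 FPKM in CD105neg, 30.4 in CD105low and 31.6 in CD105high (0.77), beside the kinesin KIF18A at 12.3, 19.6 and 15.9 FPKM (0.62). Of 39 DNA replication genes, 30 lay below 0, and 1 was 1.5-fold lower and none higher (median -0.19). It was RFC4, a subunit of the clamp loader, at 43.2, 21.6 and 18.2 FPKM (-0.98). Among 19 CDK inhibitors and p53 targets, CDKN1A and FDXR were lower and PMAIP1 was higher (median -0.11). PMAIP1, which encodes the death protein NOXA, was 5.96, 12.9 and 16.1 FPKM (0.99), opposite in direction to CDKN1A.

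Genes of protein synthesis and respiration were slightly lower as groups. Of 78 cytosolic ribosomal protein genes 75 lay below 0, with a median of -0.31, and 2 were at least 1.5-fold lower and none higher. RPS29 was 1039 FPKM in CD105neg and 641 in CD105low (-0.71), and RPS23 was 214 and 143 (-0.60). Without centring, RPS23 did not reach 1.5-fold. Most ribosomal protein genes share sequence with others: 60 of the 78 shared at least 10%. Of 54 respiratory chain genes 47 lay below 0 (median -0.23), and 2, NDUFC1 and ATP5D, were lower and none higher. NDUFC1 did not reach 1.5-fold without centring. Among 41 translation factors, 35 lay below 0 (median -0.17), 4 were lower and 1 was higher. The 4 were EIF3F, TPT1, EEF1D and EIF3K, of which EIF3F was 34.5 and 18.4 FPKM (-0.88) and TPT1 was 183 and 108 (-0.77). EIF3K was named after its value was seen. Without centring EIF3K did not reach 1.5-fold either, and NACA did, which made 2 higher factors.

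The 1 higher translation factor, EEF1G, a subunit of elongation factor 1, overlaps another gene and shares nearly all of its coding sequence with it. How reads were divided between these overlapping genes was not tested. EEF1G was 215 FPKM in CD105neg, 504 in CD105low and 157 in CD105high (1.21). AP002990.1, a gene known by its clone name that overlaps EEF1G on the same strand, was 209, 4.02 and 179 FPKM (-5.40), the largest difference of all genes counted. AP002990.1 was chosen after its values were seen. The 2 genes summed to 424 FPKM in CD105neg, 508 in CD105low and 336 in CD105high, a log2 fold change of 0.25 between CD105low and CD105neg. Of the 1252 stretches of 60 bases in the coding sequence of EEF1G (1311 bases), 1242 (99.2%) also occur in transcripts of AP002990.1. The stretch from base 632 to base 691 of the coding sequence, from GENCODE release 29, is shown as an example of sequence that both genes hold.
EEF1G and AP002990.1: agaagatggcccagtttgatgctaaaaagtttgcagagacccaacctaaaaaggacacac
A read from these bases cannot be assigned to either gene by its sequence.

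Further genes past 2-fold overlap another gene or share sequence with one, in different ways. The histone gene HIST2H4A shares sequence with HIST2H4B without overlapping it. NIPSNAP1 and GOPC each overlap another gene, and share 2.4% and 9.23% of their sampled sequence with any other gene. The histone gene HIST2H4A was 29.8 FPKM in CD105neg, 206 in CD105low and 199 in CD105high (2.74). HIST2H4B, which holds 97.8% of its sampled sequence, was 282, 252 and 207 FPKM. Their sum was 311 FPKM in CD105neg and 458 in CD105low (0.54). Among 29 histone genes, HIST2H4A was the 1 higher gene and HIST4H4, at 184 and 107 FPKM (-0.79), the 1 lower gene (median 0.00). NIPSNAP1, a mitochondrial protein gene, was 22.5 and 49.7 FPKM (1.10), and THOC5, whose exons it overlaps on the same strand, was 31.9 and 20.04 (-0.66). The sum of NIPSNAP1 and THOC5 had a log2 fold change of 0.34. GOPC, a Golgi PDZ protein gene, was 16.03 and 6.77 FPKM (-1.15) and DCBLD1, which overlaps it on the other strand, was 29.4 and 49.9 (0.73), for a sum with a log2 fold change of 0.30. NIPSNAP1 and the partner genes were chosen after their values were seen, in part because they went the other way or differed little, so a smaller difference of the sum is fixed by that choice.

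For further genes the partner went the same way. SENP3, a protease that removes SUMO, was 32.8 FPKM in CD105neg and 10.9 in CD105low (-1.52), and the read-through gene SENP3-EIF4A1 was 39.5 and 28.7 (-0.46). The sum of SENP3 and SENP3-EIF4A1 had a log2 fold change of -0.87. NME1, a nucleoside diphosphate kinase, was 117 and 56.7 FPKM (-1.05), and the read-through gene NME1-NME2 was 83.9 and 56.1 (-0.59). MYZAP, a junction protein gene, was 12.1 and 26.4 FPKM (1.05), and GCOM1, a gene of the same locus, was 12.6 and 21.1 (0.69); both were chosen after their values were seen. Of the 63 higher genes 12, and of the 24 lower genes 9, share at least 10% of their sampled sequence with another gene, as do 1345 of the 5820 genes counted. Among genes named above, HBG2 shares 65.5%, HBG1 47.6%, EEF1D 29.8%, GYPB 20.9%, COL18A1 19.8%, EIF3F 17.8%, PLAU 16.8%, GJA5 14.4% and TPT1 14.4%. Others include SENP3 with 52.6%, NME1 with 42.5%, NOTCH2 with 22.4%, RPS23 with 15.5% and NACA with 15.3%. HSPG2 shares 12.9%, FAM198B 12.8%, PLIN3 12.1% and PHLDA1 11.0%.

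**Figure D4:**
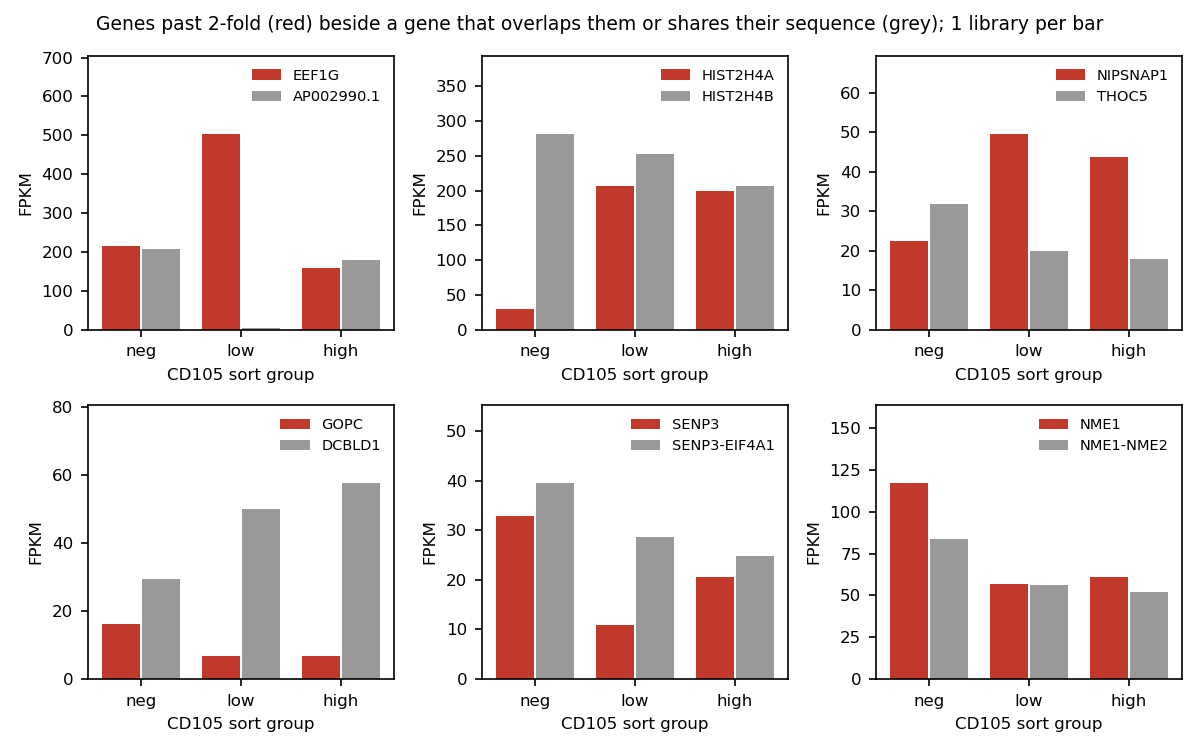
FPKM in CD105neg, CD105low and CD105high for 6 genes at least 2-fold apart between CD105low and CD105neg (red bars) and a gene that overlaps them or shares their sequence (grey bars), 1 library a bar. EEF1G is highest where AP002990.1 is near 0, and HIST2H4A is lowest where HIST2H4B is highest.

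Interferon-induced genes were higher in small number. At or above 10 FPKM, 2 of 6 were 1.5-fold higher and none lower (median 0.24), where 4.3% of all genes counted were higher. At a floor of 1 FPKM, 6 of 20 were higher and none lower, where 3.98% of all genes were higher. IFIT1, which binds foreign RNA, was 8.57 FPKM in CD105neg, 21.2 in CD105low and 36.7 in CD105high (1.20). The ubiquitin-like ISG15 was 71.2, 111 and 156 (0.62). The GIMAP genes, GTPases of lymphocytes and endothelium, were all below 10 FPKM. Of the 4 at or above 1 FPKM 3 were higher and none lower, among them GIMAP4 at 1.26 FPKM in CD105neg and 9.53 in CD105low (2.21) and GIMAP8 at 2.05 and 9.25 (1.73). GIMAP4 and GIMAP8 were chosen after their values were seen.

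Matrix genes went in both directions. Of 28 basement membrane and matrix genes, 4 were 1.5-fold higher and 2 lower (median 0.05), against 4.3% and 2.16% of all genes counted. SPARC, a collagen-binding matrix protein, was 111 FPKM in CD105neg, 208 in CD105low and 193 in CD105high (0.88). The proteoglycan gene HSPG2, which encodes perlecan, was 19.6, 36.1 and 44.5 (0.83). COL18A1, the source of endostatin, was 52.3, 31.1 and 22.8 FPKM (-0.74), and the laminin chain LAMA5 was 13.98, 8.30 and 6.82 (-0.70). Among 8 integrin chains, ITGA9 was higher at 39.8, 65.0 and 77.6 FPKM (0.68) and none was lower (median 0.32). Mesenchymal and mural genes had 1 of 12 higher and none lower (median 0.02), the surface protein gene THY1 at 33.6, 53.9 and 57.3 FPKM (0.65).

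The spread of the fold change set where a 2-fold difference stands out. The genes were ranked by level and cut into 5 bins of equal size. In the lowest bin, the 5th to 95th percentile ran from -0.49 to 0.67, and in the other bins it was narrower. Of the 63 higher genes 37, and of the 24 lower genes 12, had both values below 30 FPKM. Medians of the bins ran from 0.02 at the second-lowest level to -0.05 at the highest, from -0.03 to 0.05 over transcript length and from -0.04 to 0.05 over GC content. Labels and files used here state no sequencing depth, so no counting error can be set beside these values.

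**Figure D5:**
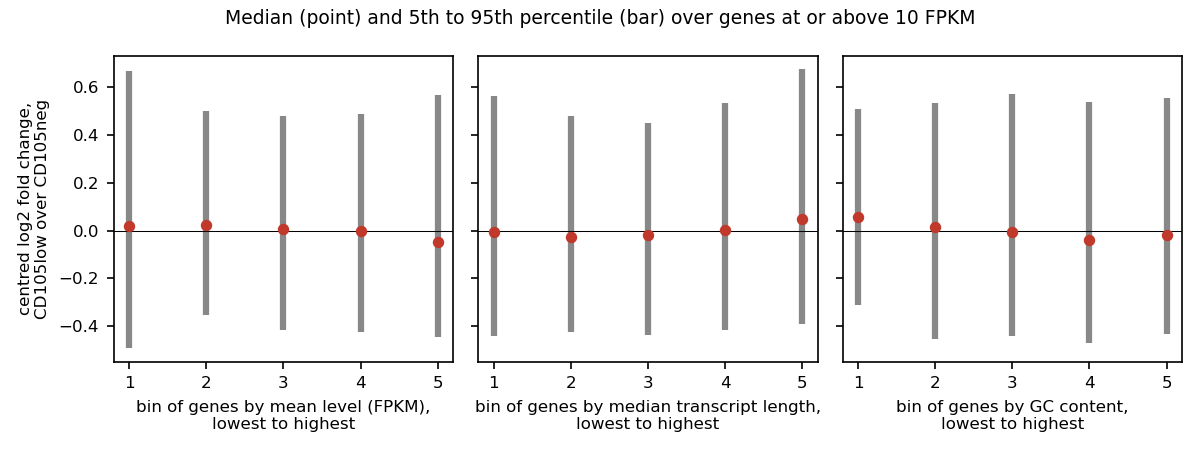
Centred log2 fold change of CD105low over CD105neg in 5 equal bins of the counted genes by mean level, median transcript length and GC content, with the median as a point and the 5th to 95th percentile as a bar. All medians, rounded, lie between -0.05 and 0.05, and the bar of the lowest level bin, from -0.49 to 0.67, is the widest of the level bins.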

How the data were processed

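RNA-seq libraries of sorted H1-derived CD31+CD34+ cells were used, 1 library per group. The authors deposited 1 value per gene and library, taken here to be FPKM (fragment numbers divided by library size and gene length). No header or label names the unit, and FPKM cannot be told from TPM in them. Per the submitters' processing notes, BWA, Bowtie, RSEM and hg19 were used, without a role or version. The annotation and any filters: not given in the sources used here.

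Genes at or above 10 in either library were compared by log2(value + 1), centred on the median gene, with python 3.11.15, numpy 2.4.6, pandas 2.3.3 and matplotlib 3.10.9. With 1 library a group no test was run. The calculation was tested on simulated data. Members and the 38 gene lists were chosen with earlier results of these data known. List members were counted at 1.5-fold. The rule named ENG, PECAM1, CD34, LPL, HSPA2, HBE1, the 15 highest and 15 lowest genes without clone-named, small RNA, read-through and mitochondrial genes, the 4 most changed members of a list (fewer in small lists), and members past 1.5-fold against their list.

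Transcript sequence came from GENCODE release 29 (18317 genes matched), which is on another build, so none of its coordinates are given. Shared sequence is the share of 50-base pieces, taken every 40 bases, that occur in another gene. Promoters came from RefSeq on GRCh38.p14. Some genes, among them many transcription factors, are not analysed here. Other pseudocounts, floors, scalings and gene exclusions were tried.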

Additional observations from a re-analysis of the deposited data

How the results depend on the processing

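No leave-one-out and no paired analysis was possible because each group has 1 library. The counts of genes past 2-fold, 63 higher and 24 lower, depended on the pseudocount, the floor and the scale. With a pseudocount of 5 they were 28 and 10, at a floor of 1 they were 105 and 47, at a floor of 30 they were 26 and 9, with no floor 112 and 43, and with each table scaled to a sum of 1000000 before the floor 130 and 63. The latter scale lets more genes past the floor of 10. The red cell list had 9 lower members at a floor of 1 and 7 after that scaling, against 3. Other lists changed too. Over all lists and the settings run for them, 55 counts changed by more than 1.5 times, or to or from none, and 401 did not. Of the list medians, 8 moved and 208 stayed close. A pseudocount of 0.1, no centring, centring on housekeeping genes and leaving out genes that share sequence kept both gene counts within 1.5 times, as did leaving out clone-named, small RNA, read-through and mitochondrial genes, an alternative chosen after seeing the data. No named gene past 1.5-fold turned its direction under the alternatives run for it. Of the single genes compared across settings, 437 values kept their side of the fold used, 21 dropped below it and 7 passed it.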

Other observations

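Several groups of genes with a member far from 0 were otherwise close between CD105low and CD105neg. Of 41 actin, myosin and contractile genes, 1 was at least 1.5-fold higher and 3 were lower (median 0.02). The higher one was ARPC5, a subunit of the actin-branching complex, at 24.8 FPKM in CD105neg, 40.9 in CD105low and 44.5 in CD105high. Beside DSTN and MYL4, the lower ones included the slow muscle troponin gene TNNT1 at 33.8, 22.03 and 18.7 FPKM. PHLDA1 was the 1 lower gene of 11 VEGF response and ERK feedback genes (median 0.02), IRAK1 the 1 lower of 11 Toll-like and interleukin-1 receptor signalling genes (0.01), SENP3 the 1 lower of 13 SUMO genes (0.04) and BEX1 the 1 lower of 6 BEX and TCEAL genes (0.21). None of these 4 lists had a higher member. PSMC2, a base ATPase of the proteasome, was 59.8 FPKM in CD105neg and 29.4 in CD105low (log2 fold change -1.01), the 1 lower gene of 31 proteasome genes, of which 26 lay below 0 (median -0.12).

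Cholesterol synthesis genes had no member 1.5-fold apart among 23, and 19 lay above 0 (median 0.18). The highest was SQLE, which makes squalene epoxide, at 58.3 and 81.0 FPKM (0.46). Of 24 glycolysis genes, 1 was lower, the enolase ENO2 at 60.4 and 39.1 FPKM (-0.63), and none higher (median -0.13). NTS, a neuropeptide gene with one of the highest levels among neural genes, was 314 FPKM in CD105neg, 179 in CD105low and 98.3 in CD105high (-0.82). With GAP43 higher, the 3 neural genes at or above 10 FPKM had 1 gene in each direction. Dissociation-responsive genes had none of 10 apart (median 0.08), mesoderm and cardiac genes none of 4 (0.47) and pluripotency and epithelial genes none of 3 (0.10). The 4 mesoderm and cardiac genes were KDR, BMP4, APLNR and PDGFRA, and 4 of 4 lay above 0. KDR is also in the endothelial list, and no cardiac muscle gene of the list reached 10 FPKM. At a floor of 1 FPKM, 9 of 12 pluripotency and epithelial genes lay below 0 (median -0.26). Of those 12, 1 was 1.5-fold lower, GAL at 2.61 and 0.93 FPKM (-0.91), and none was higher. Endoderm genes had none of 4 at or above 1 FPKM apart. Of 22 housekeeping genes none was lower (median -0.02).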
